A study of Mus musculus with 8 samples.

Results

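Hedgehog signalling was described in stomachs of E13.5 mouse embryos through 6 genes, the secreted ligands Shh and Ihh and the response genes Ptch1, Gli1, Hhip and Hsd11b2. They were taken by name from 23165 named loci of the deposited tables, each name had 1 locus, and all 6 were among the 14574 loci with enough fragments to test. RNA was sequenced from whole stomachs of 4 Nkx3.2Cre;R26-YAP5SA libraries, called YAP5SA here, and 4 wild type libraries. YAP5SA embryos carry Cre at Nkx3-2, a gene of the stomach mesenchyme, and there Cre turns on a Rosa26 transgene for a form of the coactivator YAP that Hippo kinases cannot inhibit. A group with Cre alone was not analysed here, so Cre at Nkx3-2 and active YAP cannot be told apart as sources of a difference, and the labels do not say whether a library is 1 embryo or a pool. Libraries held 7152526 to 8353242 fragments on named loci in YAP5SA and 6204932 to 6783555 in wild type, and log2 expression profiles correlated at 0.973 to 0.986 within YAP5SA, 0.970 to 0.986 within wild type and 0.936 to 0.955 between genotypes. Barx1, a transcription factor of stomach mesenchyme, was at 158 ± 14.2 CPM (fragments scaled to a common library total) in YAP5SA and 171 ± 7.64 CPM in wild type (SD, n = 4 each). The intestinal genes Cdx1, Fabp1 and Fabp2 averaged 0.166, 0.638 and 0.523 CPM in YAP5SA and 0.422, 0.270 and 0.764 CPM in wild type. Intestinal transcripts were not absent, since Cdx2 and Vil1 averaged 2.61 and 6.30 CPM in YAP5SA and 5.56 and 17.0 CPM in wild type.

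In the embryonic gut the epithelium secretes Hedgehog ligands and the surrounding mesenchyme responds. Ligand binding to the receptor Patched1, the product of Ptch1, frees the transducer Smoothened at the primary cilium, and GLI transcription factors then switch on target genes. Ptch1 and Hhip, whose product binds and retains ligand, are targets that dampen the signal, and Gli1 encodes a GLI activator that is itself a target. Hsd11b2 encodes an enzyme that inactivates glucocorticoids and is counted here among the mesenchymal response genes.

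Promoter windows from RefSeq on GRCm38.p6, running from 250 bases before to 50 bases after the annotated start, were matched for 3 of the 6 genes and are shown because all 3 genes were called lower in YAP5SA. Capitals mark CCACCC on either strand, the core of the GLI motif GACCACCCA. The windows lie at chr1:74951623-74951922, chr13:63565686-63565985 and chr8:80057959-80058258, all on the minus strand, and are written 5′ to 3′ along the gene.
Ihh: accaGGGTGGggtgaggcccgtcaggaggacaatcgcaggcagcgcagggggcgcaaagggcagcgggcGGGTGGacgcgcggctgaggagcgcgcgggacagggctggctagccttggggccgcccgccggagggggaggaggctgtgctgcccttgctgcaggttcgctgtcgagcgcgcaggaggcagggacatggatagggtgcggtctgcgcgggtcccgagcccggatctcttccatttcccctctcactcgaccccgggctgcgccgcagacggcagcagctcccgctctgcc
Ptch1: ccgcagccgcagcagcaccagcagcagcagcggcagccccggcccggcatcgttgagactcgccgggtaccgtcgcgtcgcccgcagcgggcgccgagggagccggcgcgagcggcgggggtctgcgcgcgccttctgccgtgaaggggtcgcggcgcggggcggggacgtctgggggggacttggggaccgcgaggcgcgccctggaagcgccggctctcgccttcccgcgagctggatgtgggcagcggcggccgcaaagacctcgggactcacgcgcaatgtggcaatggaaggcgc
Hhip: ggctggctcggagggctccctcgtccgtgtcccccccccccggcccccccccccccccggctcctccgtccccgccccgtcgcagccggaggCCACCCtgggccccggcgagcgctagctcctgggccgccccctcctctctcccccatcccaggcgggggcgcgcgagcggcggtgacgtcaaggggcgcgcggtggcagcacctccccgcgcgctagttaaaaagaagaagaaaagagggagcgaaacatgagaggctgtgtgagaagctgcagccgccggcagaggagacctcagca
The 9-letter motif GACCACCCA, searched on both strands, was in none of these 3 windows and in 0.253% of 32851 mouse windows of the same length. Its core CCACCC, which every 9-letter match would contain, stood in Ihh at 246 and 181 bases before the start, both on the opposite strand, and in Hhip at 158 bases before it. Ptch1 had no core in its window, and 31.5% of all windows had one. The TEAD motif GGAATG, searched likewise for the DNA-binding partners of YAP, was in none of the 3 windows and in 14.7% of all. The windows were rich in G and C, at 72.7% for Ihh, 76.3% for Ptch1 and 73.7% for Hhip beside a median of 52.7%. The deposited table lists 6 transcript start IDs for Ptch1 without positions, and the window lies inside its locus, which ends at 63573121 on the upstream side.

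Both ligands and 3 of the 4 response genes were lower in YAP5SA stomachs. Of the 6 genes, 5 fell, none rose and Hsd11b2 did not pass the test, while over all tested loci 18.9% were called at an edgeR adjusted p under 0.05, 9.85% lower and 9.06% higher. The median log2 fold change, YAP5SA minus wild type, was −0.82 over the 6 genes and −0.01 over all tested loci. The ranges of the 4 libraries stood apart for Shh, Ihh, Ptch1 and Hhip, with YAP5SA below, which held for 12.4% of tested loci. Without YAP5SA replicate 2 or 3 the number of the 6 genes called lower was 3. The same fragments cannot tell fewer cells of a type from less RNA per cell.

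**Figure D1:**
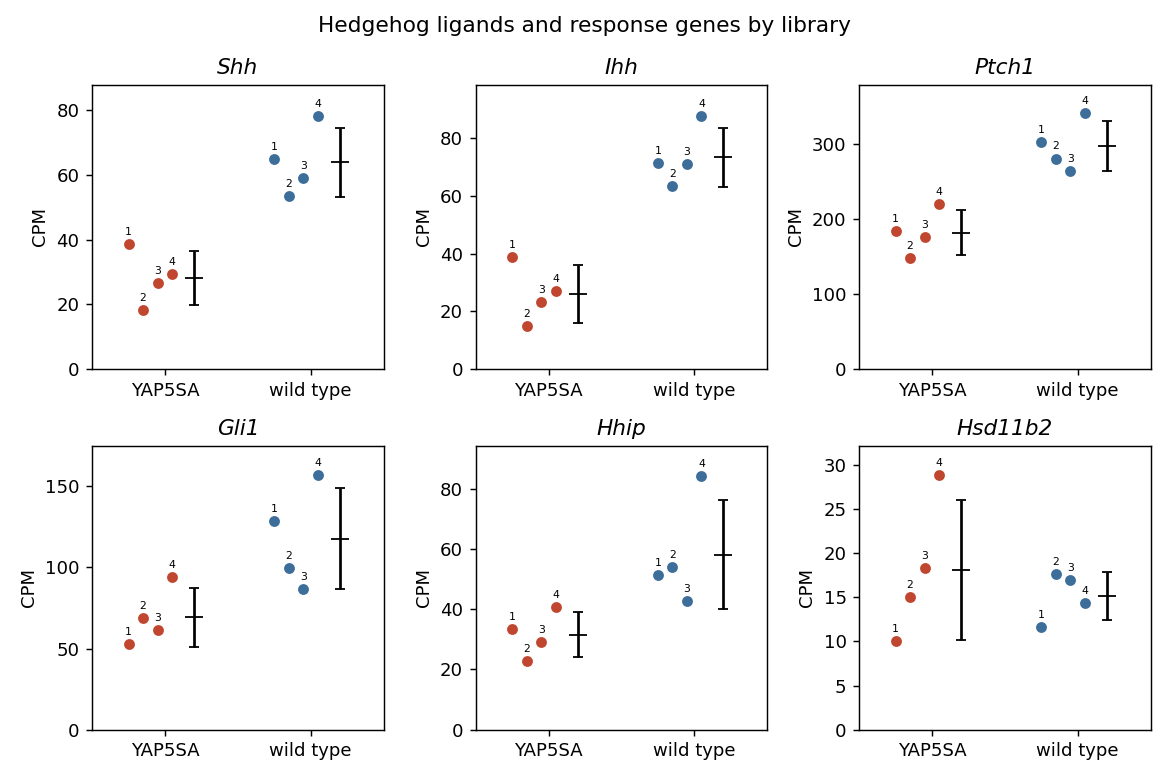
Library-scaled fragment counts (CPM) of the 6 genes in each YAP5SA library (left) and wild type library (right), numbered by replicate, with mean and SD (n = 4 each) as bars. The genotypes do not overlap for Shh, Ihh, Ptch1 and Hhip, and they overlap for Gli1 and Hsd11b2.

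Shh, Sonic hedgehog (locus XLOC_018204, chromosome 5, mm10; protein-coding on the minus strand), was at 38.7, 18.1, 26.4 and 29.2 CPM in YAP5SA replicates 1 to 4, and at 65.0, 53.5, 59.1 and 78.3 CPM in wild type replicates 1 to 4. Every YAP5SA library lay below every wild type library, with YAP5SA replicate 2 the lowest and wild type replicate 4 the highest. The log2 fold change was −1.18 ± 0.20 (SE, n = 4 each, edgeR adjusted p = 0.0024). The deposited locus runs from 28456839 to 28719209, far beyond the annotated gene at 28456815 to 28467256, and the antisense gene 9530036O11Rik, whose annotated exons overlap those of Shh, has a locus listed with the same span. 9530036O11Rik was at 0 to 0.268 CPM in YAP5SA and 0.441 to 1.27 CPM in wild type and had too few fragments to test. Whether counting used strand is not stated in the labels or headers, so fragments of overlapping exons cannot be told apart.

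Ihh, Indian hedgehog (XLOC_000857, chromosome 1, 74945317 to 74951651, mm10; protein-coding, minus strand), was at 38.9, 14.8, 23.3 and 27.1 CPM in YAP5SA replicates 1 to 4, and at 71.5, 63.4, 71.2 and 87.6 CPM in wild type replicates 1 to 4. It ranked the YAP5SA libraries as Shh did, replicate 1 highest and replicate 2 lowest, and the genotypes did not overlap. Its log2 fold change was −1.49 ± 0.23 (SE, n = 4 each, edgeR adjusted p = 0.0015). Shh and Ihh kept their calls in all 17 alternative fits, at log2 fold changes of −1.37 to −1.0 for Shh and −1.74 to −1.27 for Ihh. The remaining mammalian ligand gene, Dhh, was at 2.14 ± 0.37 CPM in YAP5SA and 2.11 ± 0.72 CPM in wild type (SD, n = 4 each).

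Per transcript length, the ratio of Ihh to Shh FPKM was 1.11, 0.898, 0.971 and 1.02 in YAP5SA replicates 1 to 4, and 1.21, 1.30, 1.33 and 1.23 in wild type replicates 1 to 4. Ihh thus exceeded Shh in every wild type library and in 2 of 4 YAP5SA libraries, and the ranges of the ratio stood apart. Summed over both ligands, FPKM averaged 22.7 ± 7.84 in YAP5SA and 57.4 ± 8.66 in wild type (SD, n = 4 each). The ratio and the sum were made from genes chosen with their results known and are given without a test.

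Markers of the epithelium, the tissue that makes these ligands, were lower in YAP5SA as well. Of 22 epithelial marker genes 21 had a locus of their own. Of these 20 (95.2%) fell and none rose, beside 9.85% lower and 9.06% higher over all tested loci. Their median log2 fold change was −1.04, beside −1.18 for Shh and −1.49 for Ihh. The fold changes of the 21 markers ran from −1.39 for Foxa1 and Elf3 (SE 0.21 each) to −0.28 for Prom1, so that Shh lay inside their range. Ihh (SE 0.23) lay below Foxa1 and Elf3 by less than these SE. The summed level was 875.2 to 1246 CPM in YAP5SA and 1648 to 1967 CPM in wild type, with no marker at 0. Cdh1, the adhesion molecule E-cadherin and the most abundant of them in wild type, was at 128 ± 29.4 CPM in YAP5SA and 211 ± 27.9 CPM in wild type (SD, n = 4 each). Epcam (−0.69 ± 0.09) and Prom1 (−0.28 ± 0.08), the next in wild type abundance, also fell (log2 fold change ± SE, edgeR adjusted p = 0.00051 and 0.032). YAP5SA replicate 1, which had the most Shh and Ihh of its group, also had the highest marker sum of its group, 1246 CPM beside 875.2 to 958.5 CPM in the other 3.

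Set against this marker sum, both ligands were lower in YAP5SA. The sum is weighted to abundant markers. The 3 most abundant in wild type, Cdh1 (−0.72), Epcam (−0.69) and Prom1 (−0.28), fell less than the list median of −1.04. Foxa1 and Elf3, at −1.39 each, fell more than Shh, at −1.18 (log2 fold changes). The log2 ratio of Shh to the sum was −5.01, −5.60, −5.18 and −5.03 in YAP5SA replicates 1 to 4, and −4.92, −4.95, −4.80 and −4.51 in wild type replicates 1 to 4. The genotypes did not overlap, though YAP5SA replicates 1 and 4 lay close to wild type replicates 1 and 2, and the mean difference was −0.41. For Ihh the log2 ratio was −5.00, −5.89, −5.36 and −5.14 in YAP5SA replicates 1 to 4, and −4.78, −4.71, −4.53 and −4.35 in wild type replicates 1 to 4, a mean difference of −0.75. All YAP5SA libraries again lay below all wild type libraries. An exact two-sided permutation test over the 70 divisions of the libraries gave p = 0.0286 for each ligand, 0.0286 after adjustment over the 2 ligands, which is the smallest p these divisions allow. These divisions leave the pairing of same-numbered libraries aside. Within pairs both ligand ratios were lower in YAP5SA in 4 of 4, and an exact two-sided paired permutation test gave p = 0.125 for each, the smallest that 4 pairs allow, so that a paired test could not pass. With the mean log2 level of the markers in place of their sum, the difference was −0.31 for Shh, whose genotypes then overlapped (exact permutation p = 0.0857, adjusted 0.0857). For Ihh it was −0.65 without overlap (exact permutation p = 0.0286, adjusted 0.0571), and 0.0571 was the lowest adjusted value it could take once Shh did not pass. The ligands and markers were chosen with earlier results of these data known, so these p-values only describe how the libraries divide. The part of epithelial content in the lower ligand levels was not tested. Pancreas genes were also found in these libraries, at sums of 151.2 to 206.9 CPM in YAP5SA and 152.2 to 362.9 CPM in wild type. The part of pancreatic epithelium in the marker sum was not tested.

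**Figure D2:**
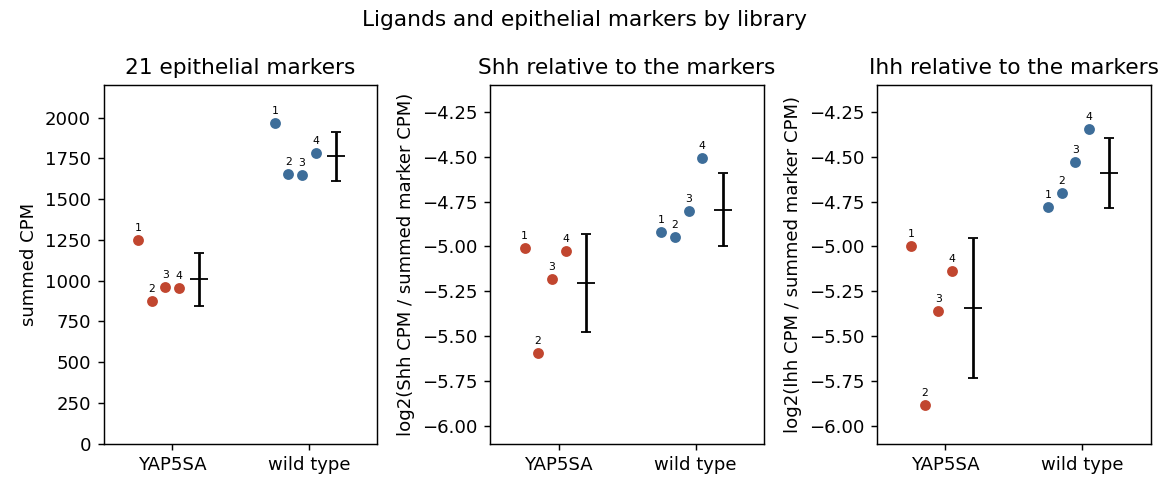
Left, summed CPM of 21 epithelial markers per library; middle and right, log2 ratio of Shh and of Ihh CPM to that sum, with YAP5SA left of wild type, replicates numbered, and mean and SD (n = 4 each) as bars. Marker sums are 875.2 to 1246 CPM in YAP5SA and 1648 to 1967 CPM in wild type, and both ratios are lower in YAP5SA without overlap.

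Ptch1, the receptor gene (XLOC_006306, chromosome 13, 63508207 to 63573121, mm10; protein-coding, minus strand), was at 184, 147, 175 and 219.6 CPM in YAP5SA replicates 1 to 4, and at 302.5, 280.2, 263 and 340.5 CPM in wild type replicates 1 to 4. The lowest wild type library stood above the highest YAP5SA library. Its log2 fold change was −0.71 ± 0.11 (SE, n = 4 each, edgeR adjusted p = 0.0021), and it was called in all 17 alternatives, at −0.80 to −0.60. Hhip (XLOC_023555, chromosome 8, 79965850 to 80058008, mm10; protein-coding, minus strand) was at 33.4, 22.8, 29.3 and 40.8 CPM in YAP5SA replicates 1 to 4, and at 51.3, 54.1, 42.7 and 84.3 CPM in wild type replicates 1 to 4. Only a narrow gap parted YAP5SA replicate 4 from wild type replicate 3, and wild type replicate 4 was well above the rest of its group. The log2 fold change was −0.88 ± 0.22 (SE, n = 4 each, edgeR adjusted p = 0.018). The call was lost without YAP5SA replicate 2 (edgeR adjusted p = 0.054) or 3 (edgeR adjusted p = 0.063), and these adjusted p ran from 0.0013 to 0.063 over the alternatives.

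Gli1, the transcriptional activator (XLOC_002514, chromosome 10, 127323726 to 127342155, mm10; protein-coding, minus strand), was at 52.6, 68.5, 61.4 and 94.3 CPM in YAP5SA replicates 1 to 4, and at 128, 99.4, 86.7 and 157 CPM in wild type replicates 1 to 4. The genotypes overlapped, since YAP5SA replicate 4 lay above wild type replicate 3. The log2 fold change was −0.77 ± 0.21 (SE, n = 4 each, edgeR adjusted p = 0.025). That call was lost when YAP5SA replicate 1, 2 or 3 (edgeR adjusted p = 0.065, 0.067 and 0.085) or wild type replicate 1 or 4 (0.061 and 0.065) was left out, and without a filter on low counts (0.073), within a range of 0.0022 to 0.085 over the alternatives. The annotated exons of Gli1 overlap those of Arhgap9 on the opposite strand, whose own locus was at 6.31 to 16.4 CPM in YAP5SA and 2.21 to 11.8 CPM in wild type (edgeR adjusted p = 0.78).

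Hsd11b2 (XLOC_023124, chromosome 8, 105518745 to 105523988, mm10; protein-coding, plus strand) was the response gene that did not pass. It was at 10.1, 15.1, 18.4 and 28.8 CPM in YAP5SA replicates 1 to 4, and at 11.6, 17.6, 16.9 and 14.4 CPM in wild type replicates 1 to 4. The genotypes overlapped widely, and the YAP5SA group held both the lowest library, replicate 1, and the highest, replicate 4. The log2 fold change was 0.25 ± 0.28 (SE, n = 4 each, edgeR adjusted p = 0.61), and −0.05 without YAP5SA replicate 4 (edgeR adjusted p = 0.91). It passed in none of the 17 alternatives, where its adjusted p ran from 0.21 to 0.91, and it rested on 73 to 215 fragments per library.

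Mesenchymal and muscle markers were measured beside these response genes. Of 15 mesenchymal markers 2 fell and 1 rose, 13.3% and 6.67%, near the 9.85% lower and 9.06% higher over all tested loci. Their median log2 fold change was −0.08. Their summed level was 3290 to 3625 CPM in YAP5SA and 3681 to 3880 CPM in wild type, without overlap and with YAP5SA below. Of 8 smooth muscle genes 5 (62.5%) fell and none rose, with a median of −0.69. Their sum was 717.5 to 987.5 CPM in YAP5SA and 1453 to 1551 CPM in wild type, also without overlap. No gene of either list was at 0, and the part of these cells in the lower Ptch1, Gli1 and Hhip was not tested.

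On the scale of FPKM, fragments scaled by transcript length and library total, which allows genes to be set against each other, the order of the 6 genes differed between genotypes. In YAP5SA the mean FPKM was 27.7 for Ptch1, 18.5 for Gli1, 11.5 for Ihh, 11.2 for Shh, 10.8 for Hsd11b2 and 5.46 for Hhip. The library ranges of all neighbours in that order overlapped, although Ptch1 exceeded Gli1, and Hsd11b2 exceeded Hhip, in 4 of 4 libraries. In wild type the mean FPKM was 44.4 for Ptch1, 32.0 for Ihh, 30.5 for Gli1, 25.4 for Shh, 11.0 for Hhip and 8.998 for Hsd11b2. There Ptch1 stood apart from Ihh, and Shh from Hhip, while the ranges of Ihh and Gli1, Gli1 and Shh, and Hhip and Hsd11b2 overlapped. Gli1 thus stood above both ligands in 3 of 4 YAP5SA libraries, while in wild type Ihh exceeded Gli1 in only 2 of 4. By mean, Hsd11b2 was last in wild type, where Hhip exceeded it in 3 of 4 libraries, and above Hhip in YAP5SA.

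**Figure D3:**
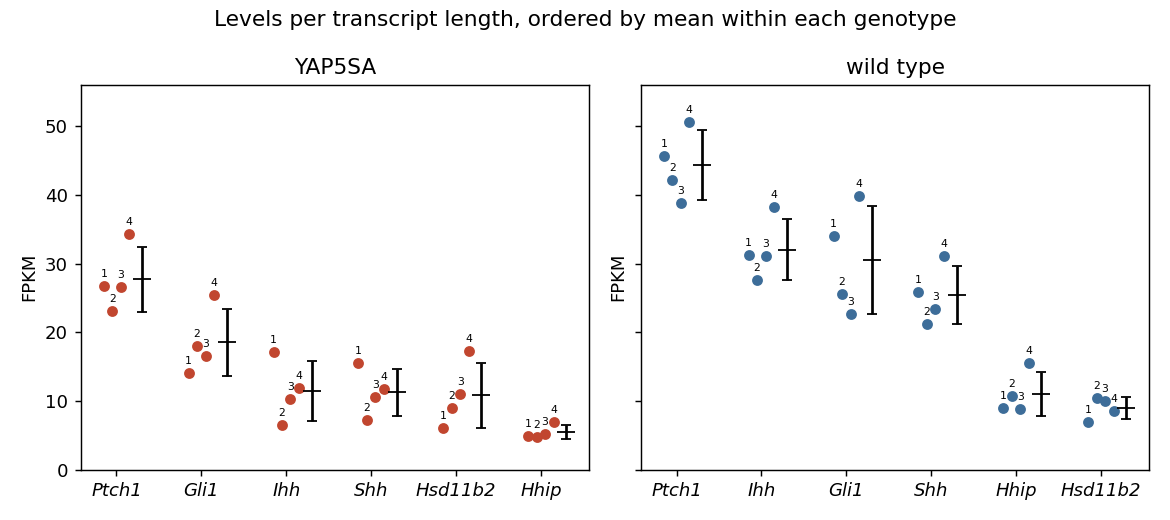
FPKM of the 6 genes in each library, ordered by group mean within YAP5SA (left) and wild type (right), replicates numbered, with mean and SD (n = 4 each) as bars. By mean, Ptch1 leads in both genotypes, Ihh lies below Gli1 in YAP5SA and above it in wild type, and Hhip and Hsd11b2 change places. In wild type Ihh exceeds Gli1 in 2 of 4 libraries, and Hhip exceeds Hsd11b2 in 3 of 4.

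Set against the summed FPKM of both ligands, the response genes were higher in 3 of 4 YAP5SA libraries than in any wild type library. The ratio of Ptch1 to the ligands was 0.818, 1.69, 1.28 and 1.46 in YAP5SA replicates 1 to 4, and 0.801, 0.865, 0.713 and 0.731 in wild type replicates 1 to 4. YAP5SA replicates 2, 3 and 4 lay above every wild type library and YAP5SA replicate 1 among them. The same placing held for Gli1, whose ratio averaged 0.903 ± 0.379 in YAP5SA and 0.528 ± 0.080 in wild type (SD, n = 4 each). The ratio of Hhip averaged 0.261 ± 0.083 in YAP5SA and 0.191 ± 0.036 in wild type (SD, n = 4 each), with replicates 2, 3 and 4 of YAP5SA again above. Replicate 1 of YAP5SA was only just below all wild type libraries in Hhip, at 0.151 beside 0.157 in wild type replicate 1. The ratio of Hsd11b2 averaged 0.525 ± 0.242 in YAP5SA and 0.161 ± 0.046 in wild type, again with YAP5SA replicate 1 inside the wild type range. The ligand sum itself was 22.7 ± 7.84 in YAP5SA and 57.4 ± 8.66 in wild type (SD, n = 4 each). A gene at a like level in both genotypes is thus also higher on this ratio. Smo, the Smoothened gene, averaged 57.1 FPKM in YAP5SA and 60.6 FPKM in wild type, for example. For Ptch1, Gli1 and Hhip the higher ratios show a smaller fall than that of the ligands, not a rise. These ratios combine genes chosen with results known and carry no test.

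**Figure D4:**
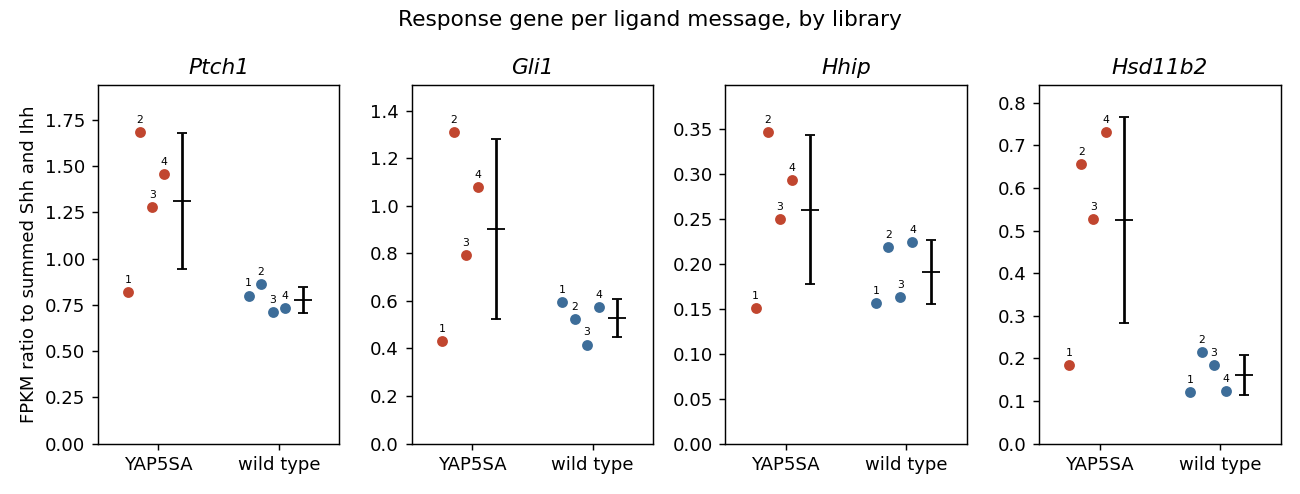
Ratio of the FPKM of each response gene to the summed FPKM of Shh and Ihh in each library, YAP5SA left and wild type right, replicates numbered, with mean and SD (n = 4 each) as bars. In all 4 panels YAP5SA replicates 2, 3 and 4 lie above the wild type libraries, and YAP5SA replicate 1 does not. The ligand sum is itself lower in YAP5SA, so a gene at a like level in both genotypes would also be higher.

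Among the response genes themselves, the ratio of Gli1 to Ptch1 FPKM was alike in both genotypes, at 0.667 ± 0.114 in YAP5SA and 0.680 ± 0.0999 in wild type (SD, n = 4 each). The ratio of Hhip to Ptch1 was 0.185 to 0.206 in YAP5SA and 0.196 to 0.307 in wild type, so on this scale the YAP5SA libraries were close together and the ranges overlapped. Hhip spread less in FPKM than in CPM there. In YAP5SA replicates 1 to 4 it was at 4.93, 4.76, 5.21 and 6.93 FPKM, and at 33.4, 22.8, 29.3 and 40.8 CPM. The part of the FPKM scaling in this closeness was not tested. The ratio of Hsd11b2 to Ptch1 was 0.226 to 0.502 in YAP5SA and 0.151 to 0.259 in wild type, with 3 YAP5SA libraries above all of wild type.

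Libraries also differed within a genotype. In YAP5SA, replicate 1 was highest in Shh and Ihh and lowest in Gli1 and Hsd11b2, whereas replicate 4 was highest in Ptch1, Gli1, Hhip and Hsd11b2. In wild type, replicate 4 was highest in Shh, Ihh, Ptch1, Gli1 and Hhip, and replicate 3 was lowest in Ptch1, Gli1 and Hhip. Hsd11b2 followed neither pattern in wild type, where replicate 2 was highest and replicate 1 lowest.

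Likeness to other genes was measured as the root-mean-square difference between log2 CPM profiles over the 8 libraries, each centred on its mean, among 12455 single-name loci with at least 5 CPM on average. Nearest to Shh was Esrp1, an epithelial splicing regulator, at a difference of 0.102, followed by Sgpp2 and Fhdc1 at 0.109 and 0.113. Nearest to Ihh was Foxa1, a forkhead factor of endoderm, at 0.117, followed by Zbtb16 and Sgpp2 at 0.138 and 0.148. Esrp1 and Foxa1 are on the epithelial marker list, and Sgpp2 was named for both ligands. Ihh ranked 40 in nearness to Shh, and Shh 14 in nearness to Ihh, at a difference of 0.19. The profiles include the genotype difference, so a near gene also has a like fold change, as Esrp1 (−1.10) and Foxa1 (−1.39) did.

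Response genes had other neighbours. Nearest to Ptch1 were Rgag4, Cecr2 and Bzrap1, at differences of 0.094, 0.0949 and 0.0961. Nearest to Gli1 were Serpinf2, Pik3r3 and Magel2, at 0.128, 0.206 and 0.222, and nearest to Hhip were 1110012J17Rik, the Wnt receptor gene Fzd5 and Rgag4, at 0.159, 0.159 and 0.166. Ptch1 ranked 5 in nearness to Gli1, at 0.236, and 5 in nearness to Hhip, at 0.193, whereas among the neighbours of Ptch1 Gli1 ranked 323 and Hhip 137. Nearest to Hsd11b2 were the cadherin gene Cdh10, Cilp and Fam107a, at 0.0906, 0.162 and 0.162, and none of these 3 was called (edgeR adjusted p = 0.84, 0.70 and 0.81).

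Other genes of the pathway were taken from 4 lists and set beside the 9.85% lower and 9.06% higher over all loci. Of 11 tested genes for ligand processing, release and spreading, 2 rose and 1 fell, with a median log2 fold change of 0.10. Disp1, needed to release lipid-bearing ligand, rose to 98.8, 99.4, 109 and 111 CPM in YAP5SA replicates 1 to 4, against 61.5, 75.6, 88.2 and 65.5 CPM in wild type replicates 1 to 4 (log2 fold change 0.52 ± 0.10, SE, edgeR adjusted p = 0.0051). All YAP5SA libraries were above all wild type libraries. The glypican gene Gpc4 rose by 0.31 ± 0.07 (edgeR adjusted p = 0.011), and Disp2, a relative of Disp1, fell by 1.05 ± 0.28 (edgeR adjusted p = 0.027). Disp2 lost its call without YAP5SA replicate 2, 3 or 4 (edgeR adjusted p = 0.060, 0.068 and 0.071) or wild type replicate 1 or 3 (0.076 and 0.053), within 0.0012 to 0.076 over the alternatives.

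Of 6 tested genes for reception, 2 rose and none fell, with a median of 0.12. Boc and Gas1, which encode Hedgehog coreceptors, had log2 fold changes of 0.57 ± 0.10 and 0.25 ± 0.07 (SE, edgeR adjusted p = 0.0026 and 0.029). Gas1 no longer passed once YAP5SA replicate 2 or 3 (0.058 and 0.076) or wild type replicate 2 or 4 (0.064 and 0.079, edgeR adjusted p) was left out, within 0.0064 to 0.079 over the alternatives. Cdon, another coreceptor gene, was at 266 ± 14.7 CPM in YAP5SA and 244 ± 43.6 CPM in wild type and passed only without wild type replicate 3 (edgeR adjusted p = 0.019). The transducer gene Smo was at 219 ± 18.0 CPM in YAP5SA and 234 ± 5.88 CPM in wild type (SD, n = 4 each).

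Of 18 tested genes for transduction, from Gli2, Gli3 and Sufu to protein kinase A subunits, 0 were called by edgeR, DESeq2 or limma-voom and 3 had an unadjusted edgeR p under 0.05. Their log2 fold changes lay between −0.22 and 0.21. With the replicate block, Tulp3, which carries membrane proteins into the cilium, passed at 0.20 (edgeR adjusted p = 0.027) and Btrc, a ubiquitin ligase subunit, at −0.22 (edgeR adjusted p = 0.041). Tulp3 also passed without YAP5SA replicate 1 (0.039), without wild type replicate 3 (0.021) and with no filter on low counts (0.049), and Btrc without YAP5SA replicate 3 (0.029, edgeR adjusted p). Of 22 genes of the primary cilium, 0 were called by any of these 3 tools, 2 had an unadjusted edgeR p under 0.05, and the median was −0.02.

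Of 9 tested genes counted as other Hedgehog targets in gut mesenchyme, 3 fell and 1 rose, with a median of −0.07. The forkhead genes Foxf1a, Foxf2 and Foxl1 fell, at log2 fold changes of −0.74 ± 0.08, −0.85 ± 0.15 and −1.12 ± 0.20 (SE, edgeR adjusted p = 0.00031, 0.0033 and 0.0039). Foxf1a, a mesenchymal factor downstream of Hedgehog in the gut, was at 75.7, 81.2, 91.5 and 102 CPM in YAP5SA replicates 1 to 4, and at 145, 141, 146 and 152.5 CPM in wild type replicates 1 to 4, without overlap. Bmp4, the ligand gene that gut mesenchyme makes downstream of Hedgehog, rose by 0.50 ± 0.09 (edgeR adjusted p = 0.0033), at 78.5 to 98.8 CPM in YAP5SA and 53.4 to 67.4 CPM in wild type. All 4 kept their calls and signs in the 17 alternatives. Osr1, Nkx2-3, Ccnd2, Bcl2 and Mycn did not pass, at log2 fold changes of −0.08 to 0.14.

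**Figure D5:**
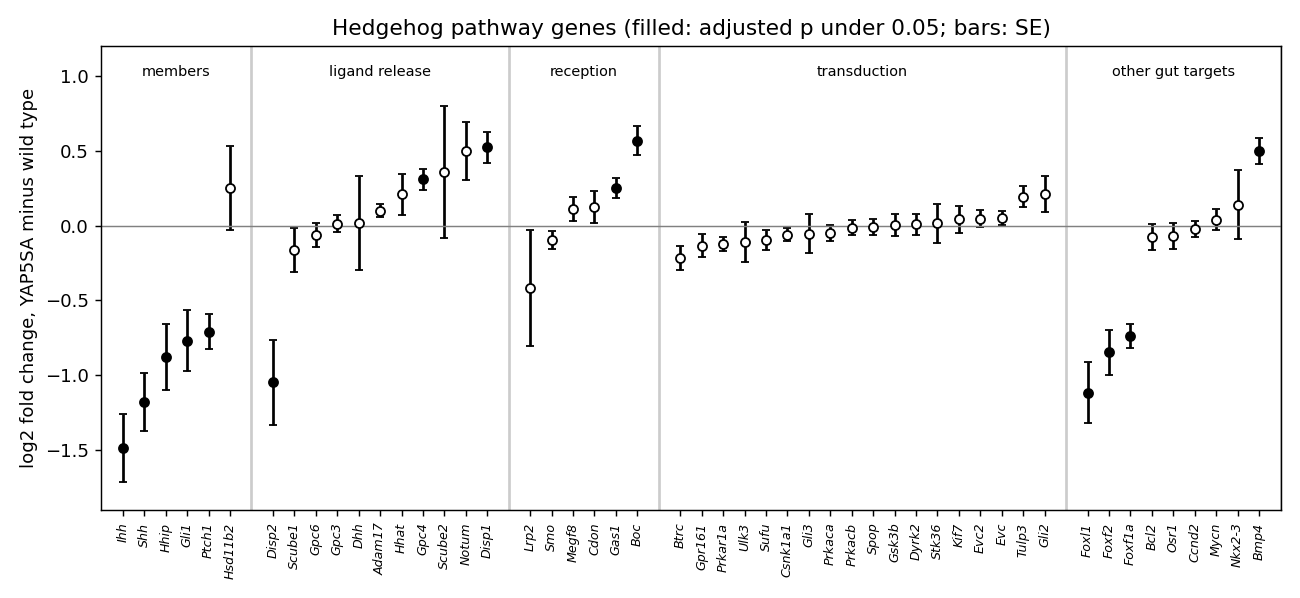
Log2 fold change (YAP5SA minus wild type) of the tested Hedgehog genes by list, with SE as bars and filled points for an edgeR adjusted p under 0.05. The ligands Ihh and Shh lie at −1.49 and −1.18, the 18 transduction genes lie between −0.22 and 0.21, and called genes go both ways in the ligand release and other target lists.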

How the data were processed

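Per the labels' protocols, frozen stomachs gave RNA by Trizol, and an Illumina TruSeq kit made the libraries. The submitters' processing notes name mm10, Cufflinks 2.2.1, Cuffdiff and TopHat2 2.0.9; read filters, duplicates and strand use are not given in the sources used here. The deposited fragments per locus and library are estimated counts (10.6% to 11.0% of values not whole) and were rounded; FPKM values were scaled by the authors, per the file headers, and their group FPKM values were within 0.01 of the library means. Loci with no gene name (3582, with 1.85% to 1.97% of fragments) were left out, and 591 loci that join several gene names entered no list.

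Genotype was tested with edgeR 4.0.16 (R 4.3.3; quasi-likelihood, robust, TMM, default filterByExpr with a minimum of 10 fragments and 15 in total) over 14574 loci, two-sided, with Benjamini-Hochberg adjustment over all of them. The test was also tried on simulated data with known changes and independent libraries, and no result here rests on that trial. CPM uses TMM-scaled totals. Alternatives used other library-size factors, DESeq2 1.42.0, limma 3.58.1 on counts (voom) and on log2 FPKM with a pseudocount of 1 or 0.1, other filters, a replicate block and each library left out. The file numbers libraries from 0 and the titles from 1; replicates are called 1 to 4 in file order within a genotype. Same-numbered libraries deviated together from their group means, though weakly (correlations of 0.22, 0.143, 0.141 and 0.206, against −0.253 to 0.104 for other combinations). No label says what a number shares between genotypes. Pairs were therefore used only in the replicate block and the paired permutation test, and the main fit has genotype alone. Nothing says that libraries came from separate embryos, and a p-value then reflects only how these libraries vary, which may be technical. Gene classes are from GENCODE M21 on the same build. Named genes were the 6 members, called genes of the Hedgehog and cilium lists and others that a count needs, the 3 most abundant epithelial markers (by wild type mean) and the 3 loci nearest in profile to each member. Members and lists were chosen with earlier results of these data known. A gene of the reception list and a gene of the pancreas list are not reported here and entered no count or sum of their lists.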

Additional observations from a re-analysis of the deposited data

How the results depend on the processing

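Over all tested loci 2757 were called, and 2032 to 2805 with 1 library left out. The number of the 6 genes called lower was 5, 4 with no filter on low counts, and 3 to 5 with 1 library left out, a count added after seeing the data. With 1 library left out, the log2 fold change was −0.94 to −0.60 for Gli1, −1.01 to −0.64 for Hhip and −0.05 to 0.46 for Hsd11b2. Gli1 lost its call with no filter on low counts, at −0.75. Reception genes called numbered 2, and 1 to 3 with 1 library left out. Transduction genes called numbered 0, 1 with no filter, 2 with the replicate block and 0 to 1 with 1 library left out. In the fit over all loci the block changed no other call among the members and listed Hedgehog and cilium genes. Relative to epithelial markers, the difference with mean log2 levels was −0.31 for Shh, which did not pass, and −0.65 for Ihh, which was at the smallest unadjusted p but could not pass after adjustment. With same-numbered libraries as pairs (replicate block), added after seeing the data, the differences of −0.41 for Shh and −0.75 for Ihh were the same and no p under 0.125 was possible. With 1 library left out it was −0.47 to −0.28 for Shh and −0.87 to −0.57 for Ihh, without a test. The cause of these changes was not tested. Hsd11b2, at 73 to 215 fragments per library, had the fewest fragments of the 6 genes in total.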

Other observations

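Markers of organs next to the stomach were measured in the same libraries. For 6 pancreas genes the edgeR adjusted p ran from 0.16 to 0.97, and their summed level was 151.2 to 206.9 CPM in YAP5SA and 152.2 to 362.9 CPM in wild type. The most abundant of the 6 was the exocrine enzyme gene Cpa1, at 84.0 ± 11.8 CPM in YAP5SA and 94.6 ± 45.2 CPM in wild type (SD, n = 4 each). Intestinal genes summed to 3.91 to 16.8 CPM in YAP5SA and 11.2 to 34.2 CPM in wild type, and of 5 such genes 2 were tested and 1, Vil1, fell. Of 6 mesothelial genes 1 fell, Upk3b, and their sum was 292.9 to 359.2 CPM in YAP5SA and 300.5 to 489.4 CPM in wild type. Over all tested loci 9.85% were called lower, and these counts are too small to set against that share.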
